A study of Homo sapiens with 11 samples.

Results

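NKX2-1, FOXA1, FOXA2, GATA6, SFTPB, NAPSA, MUC1, CEACAM6 and ELF3 are genes by which the lung lineage and lung adenocarcinoma (LUAD) are recognised. They were taken by gene name from the expression table, where all 9 of the 9 were present among 57773 listed genes (NKX2-1 as ENSG00000136352.13, for example), and from the 5 tables of splicing events, where 7 of the 9 had an event. They were chosen by name and not by a threshold on any measured value. RNA-Seq was performed on HCC78 cells, an established LUAD line in which the ROS1 kinase gene is fused to SLC34A2 and U2AF1 carries the S34F mutation. U2AF1 is the splicing factor that recognises the AG at the 3′ end of introns, and the question of the study was how the S34F mutant differs from the wild-type protein. The 9 libraries were 2 of the parental line, 2 of the line transduced with FLAG-HA-tagged wild-type U2AF1 without doxycycline (WT dox-), 2 of that line with doxycycline (WT dox+), 1 of the line transduced with tagged S34F U2AF1 without doxycycline (S34F dox-) and 2 of that line with it (S34F dox+).

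Every group carried the endogenous mutation. The labels gave S34F as 28% to 33% of U2AF1 mRNA in the 5 libraries without induction, 12% and 14% for WT dox+, and 62% and 65% for the induced S34F line, so that WT dox+ was no S34F-free control. The transduced lines were stable subclones made with an inducible lentiviral vector, and each construct was therefore represented by its own selected cells. The labels called the parental libraries dox minus while a supplementary table of the study headed the same columns as dox plus, and this difference was not resolved here. Nothing in the labels said whether the 2 libraries of a group came from separate cultures, so p-values measure the spread between these libraries, which may be technical. Doxycycline itself and the protein it induced cannot be told apart, because no untransduced cells were given with and without it under agreed labels.

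NKX2-1, also known as TTF-1, is the homeodomain factor that specifies the lung from the foregut and keeps alveolar cells in their fate. FOXA1 and FOXA2 are forkhead factors that open chromatin in foregut epithelium, and GATA6 is a zinc finger factor that acts with NKX2-1 on surfactant genes. SFTPB encodes surfactant protein B and NAPSA encodes napsin A, an aspartic protease that processes it, and both are targets of NKX2-1 that alveolar type II cells express. MUC1 is a transmembrane mucin, CEACAM6 a cell surface adhesion protein often raised in adenocarcinoma, and ELF3 an epithelial ETS factor.

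The promoters of SFTPB, NAPSA and NKX2-1 are shown because the first 2 are read out as NKX2-1 targets and the third is the factor itself. RefSeq entries of build GRCh38.p14 matched 8 of the 9 members (not FOXA2), with 12 promoters in all, each reaching from 250 bases before to 50 bases after a start site. All 3 genes lie on the minus strand, and the sequences are written 5′ to 3′ on that strand. SFTPB and NAPSA have a second entry each in RefSeq, and so has NKX2-1. Capitals mark matches, on either strand, to CAAG (the core of NKX2-1 sites, with CTCAAG and CAAGTG as longer forms that contain it), to the forkhead motif TGTTTAC or its variant TATTTAC, to the GATA factor motif AGATAA or its variant TGATAA, and to the ETS factor motif CGGAAG or its variant AGGAAG.
SFTPB, chr2:85668150-85668449: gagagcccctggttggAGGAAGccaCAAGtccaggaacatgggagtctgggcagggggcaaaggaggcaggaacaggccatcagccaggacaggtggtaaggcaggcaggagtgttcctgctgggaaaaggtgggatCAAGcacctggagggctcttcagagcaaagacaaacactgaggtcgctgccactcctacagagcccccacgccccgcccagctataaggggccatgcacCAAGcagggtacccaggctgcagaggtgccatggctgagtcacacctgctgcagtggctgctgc
NAPSA, chr19:50365590-50365889: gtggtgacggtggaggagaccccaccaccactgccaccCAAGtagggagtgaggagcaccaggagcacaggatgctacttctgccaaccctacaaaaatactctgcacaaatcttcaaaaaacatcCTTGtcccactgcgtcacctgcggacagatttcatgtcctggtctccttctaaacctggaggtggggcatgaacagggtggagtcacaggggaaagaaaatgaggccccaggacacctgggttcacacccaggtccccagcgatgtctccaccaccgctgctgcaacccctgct
NKX2-1, chr14:36519507-36519806: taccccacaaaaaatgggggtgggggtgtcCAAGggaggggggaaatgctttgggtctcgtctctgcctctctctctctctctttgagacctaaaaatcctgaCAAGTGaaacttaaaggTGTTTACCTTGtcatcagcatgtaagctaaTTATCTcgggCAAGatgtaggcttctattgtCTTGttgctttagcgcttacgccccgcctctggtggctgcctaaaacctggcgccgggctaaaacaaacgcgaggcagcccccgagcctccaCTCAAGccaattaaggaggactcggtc
CAAG occurred 3 times in the SFTPB window, 113 bases before the start among other places, and AGGAAG once. The NAPSA window held CAAG 2 times and none of the other motifs, whereas its second entry, chr19:50369253-50369552, held CAAG 7 times, with 2 of the longer forms. The second entries of SFTPB and NKX2-1 held CAAG 1 time each. The NKX2-1 window held CAAG 6 times, including 1 CAAGTG and 1 CTCAAG that overlap it, and 1 TGTTTAC and 1 AGATAA. Matches of this kind were common among all 35116 promoters searched, of which 86% held CAAG, 12.4% CTCAAG, 11.5% CAAGTG, 33.6% AGGAAG, 19.5% CGGAAG, 10.3% AGATAA, 7.53% TGATAA, 3.42% TGTTTAC and 2.67% TATTTAC. A match is a description of the letters and not evidence of a bound site.

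Expression was given as FPKM, in which fragments are scaled to transcript length and library size, which allows levels to be compared between genes. The deposited table has no counts, so the reads behind each value and any counting interval are unknown. Depth relative to the first parental library, estimated from the commonest ratio among genes of low FPKM, lay between 0.603 and 1.27, and was lowest in the S34F dox+ libraries. Between 13661 and 14688 genes reached 1 FPKM in the 5 libraries without induction, and between 15736 and 20896 in the 4 dox+ libraries, with the highest number in S34F dox+ replicate 2. U2AF1 itself had 103 to 115 FPKM without induction, 278 and 299 FPKM in the induced WT line and 164 and 223 FPKM in the induced S34F line, so the induced lines also differed in the amount of U2AF1. Tests were made with limma-trend on log2(FPKM + 1) over the 15179 genes whose mean reached 1 FPKM, with Benjamini-Hochberg adjustment, and a fold change on this scale understates the change of a low gene. Of the members, 7 were tested, and SFTPB and CEACAM6 were below the minimum.

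The label of the cells was checked against markers. Of 12 markers of a LUAD line, 11 had a mean of at least 1 FPKM, with KRT7 at 3667, KRT19 at 1986 and KRT8 at 1944 FPKM over the 9 libraries. SFTPB was the exception at 0.928 FPKM. Of 12 squamous and basal genes, 4 reached a mean of 1 FPKM, namely KRT15 at 5.22, S100A2 at 5.05, KRT14 at 2.08 and TP63 at 1.54 FPKM, and KRT5 lay between 0 and 0.81 FPKM. The alveolar type II list was mixed, and 12 of its 19 genes reached a mean of 1 FPKM. SFTPA1, SFTPA2, SFTPC and SFTPD, which encode surfactant proteins A, C and D, never exceeded 0.69 FPKM. ABCA3 and LAMP3, which belong to lamellar bodies, had means of 4.35 and 4.54 FPKM. The surfactant-associated genes SFTA2 and SFTA3, named after their values were seen, had means of 64.7 FPKM (37.0 to 102) and 47.4 FPKM (37.9 to 59.8).

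The members spanned a wide range of levels. ELF3 and MUC1 were highest, with means of 250 and 237 FPKM, and their ranges over the libraries overlapped. NKX2-1 followed at 55.8 and FOXA1 at 24.6 FPKM, and neither range overlapped with its neighbours. FOXA2 at 6.67, NAPSA at 3.99, GATA6 at 2.1, SFTPB at 0.928 and CEACAM6 at 0.633 FPKM each overlapped with the next in this order. Among the genes tested, the mean of ELF3 stood at percentile 97.2, that of NKX2-1 at 86.4 and that of NAPSA at 29.9.

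**Figure D1:**
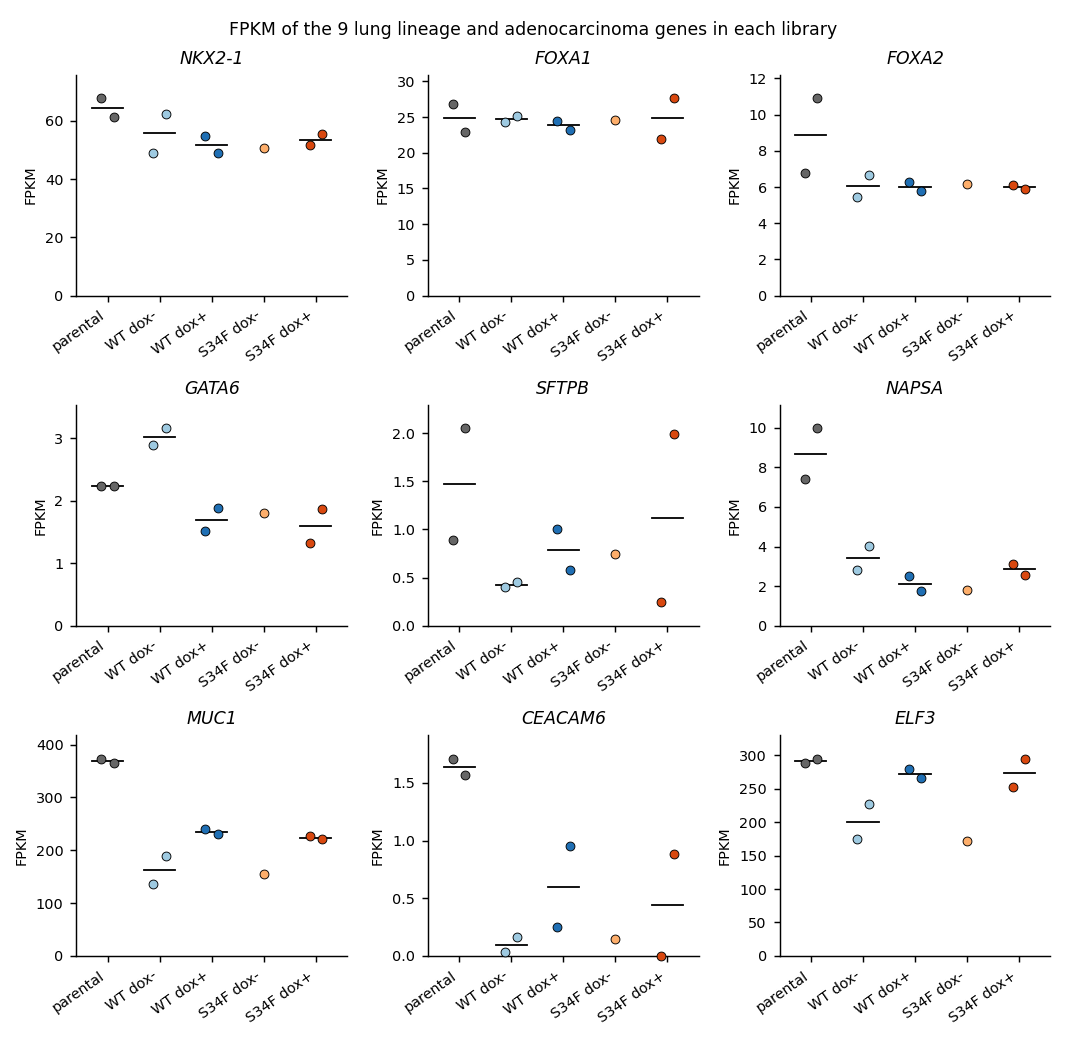
FPKM (linear axes starting at 0) of each member in the 9 libraries, by group, with 1 point per library and a line at the mean of groups of 2. NKX2-1 and FOXA1 vary little. FOXA2, NAPSA, MUC1 and CEACAM6 have both parental libraries above all 7 transduced libraries. The share of all genes without overlap, at any fold, was not counted. With a difference of 1.5-fold or more as well, it was 1.38% of genes tested, and only NAPSA and MUC1 of the members. MUC1 and ELF3 are lower in the transduced dox- libraries than in the dox+ libraries.

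Of the lineage transcription factors, NKX2-1 was at 67.8 and 61.3 FPKM in the parental line, 49.05 and 62.3 in WT dox-, 54.7 and 49.1 in WT dox+, 50.6 in S34F dox- and 51.6 and 55.4 in S34F dox+. The parental libraries were among the 3 highest, and the other groups overlapped with each other wherever they had 2 libraries. FOXA1 had the narrowest range of the 9 genes, from 22.0 to 27.6 FPKM, a ratio of 1.26 between the highest and the lowest library, and both of these were S34F dox+ libraries.

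FOXA2 was at 6.8 and 10.9 FPKM in the parental line and between 5.43 and 6.65 FPKM in the 7 transduced libraries. Both parental values were above the transduced ones, and the 2 parental libraries differed from each other by more than the transduced libraries did. GATA6 was at 2.23 FPKM in both parental libraries, 2.9 and 3.16 in WT dox-, 1.51 and 1.89 in WT dox+, 1.8 in S34F dox- and 1.33 and 1.87 in S34F dox+. WT dox- was thus the highest group, and the other transduced groups lay below the parental line.

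Of the secretory products, NAPSA was at 7.39 and 9.97 FPKM in the parental line, 2.79 and 4.02 in WT dox-, 2.52 and 1.73 in WT dox+, 1.82 in S34F dox- and 3.14 and 2.57 in S34F dox+. The parental libraries stood clear of the rest, with a mean of 8.68 ± 1.82 FPKM (SD, n = 2), 3.27 times that of the 7 transduced libraries. SFTPB was at 0.89 and 2.05 FPKM in the parental line, 0.4 and 0.45 in WT dox-, 1.0 and 0.58 in WT dox+, 0.74 in S34F dox- and 0.25 and 1.99 in S34F dox+. The spread within S34F dox+ covered nearly the whole range, so no group could be set apart for SFTPB.

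Of the surface proteins, MUC1 was at 374 and 364 FPKM in the parental line, 137 and 189 in WT dox-, 239 and 231 in WT dox+, 155 in S34F dox- and 227 and 221 in S34F dox+. The means were 369 ± 6.44 in the parental line, 163 ± 37.0 in WT dox-, 235 ± 5.95 in WT dox+ and 224 ± 4.79 FPKM in S34F dox+ (SD, n = 2). These fall into an order without overlap, with the parental line highest, the dox+ libraries of both lines between 221 and 239 FPKM, and the transduced dox- libraries lowest. CEACAM6 was at 1.71 and 1.57 FPKM in the parental line, 0.03 and 0.16 in WT dox-, 0.25 and 0.95 in WT dox+, 0.15 in S34F dox- and 0 and 0.88 in S34F dox+. Both parental libraries were above every transduced library, at levels too low for the test, and with no counts a value of 0 can only be read as listed at 0.

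ELF3 was at 289 and 295 FPKM in the parental line, 174 and 227 in WT dox-, 279 and 266 in WT dox+, 171 in S34F dox- and 253 and 294 in S34F dox+. The 3 transduced dox- libraries were all below the other 6, which lay between 253 and 295 FPKM. The mean was 201 ± 37.6 FPKM in WT dox- and 273 ± 8.74 FPKM in WT dox+ (SD, n = 2), and the wide spread in WT dox- was shared with MUC1, both being lower in replicate 1.

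The main comparison asked whether S34F changed these genes relative to wild-type U2AF1 under induction. No member differed by the test in S34F dox+ against WT dox+, by limma with 0 of 7 at an adjusted p under 0.05 and 0 at an unadjusted p under 0.05, where 0.0527% of all genes tested were called and 6.78% had an unadjusted p under 0.05. The fitted log2 fold changes lay between -0.07 for MUC1 and 0.31 for NAPSA, with a median over the members of 0.0016 beside 0.03 over all genes. For NKX2-1 the value was 0.05 (SE 0.14, 95% interval -0.29 to 0.38). For NAPSA it was 0.31 (SE 0.26, interval -0.30 to 0.92, limma adjusted p = 0.869). No member was at least 1.5-fold apart without overlap, a description that held for 9.29% of genes. A p above the threshold does not show that the lines are alike, and the intervals give the differences that these libraries could not resolve.

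**Figure D2:**
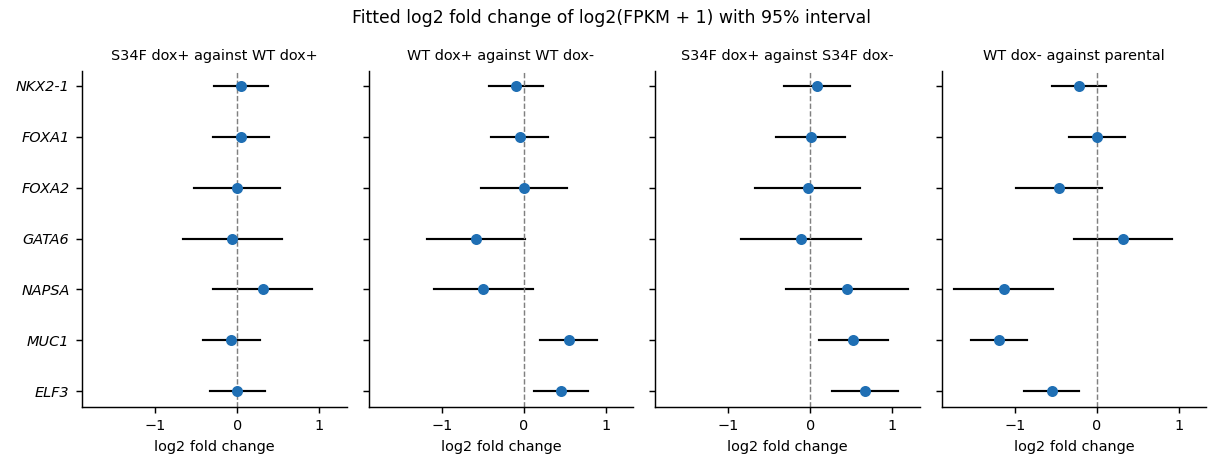
Fitted log2 fold change of log2(FPKM + 1) for the 7 members tested in 4 comparisons, with points for the estimate and lines for its 95% interval. All intervals include 0 in S34F dox+ against WT dox+, whereas those of MUC1 and ELF3 lie above 0 in both responses to doxycycline and below 0 in WT dox- against the parental line. No adjusted p shown here was under 0.05.

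The response to doxycycline was compared within each line. In WT dox+ against WT dox- no member passed, by limma with 0 of 7 called and 2 at an unadjusted p under 0.05, against 0.0132% of genes called and 14.4% at an unadjusted p under 0.05. MUC1 had a log2 fold change of 0.55 (SE 0.15, limma adjusted p = 0.199) and ELF3 of 0.45 (SE 0.14, limma adjusted p = 0.241). GATA6 was at -0.58 (SE 0.26) and NAPSA at -0.49 (SE 0.26), and these 2 were the members at least 1.5-fold apart without overlap, both lower in WT dox+, where 3.01% of all genes were apart in this direction and 16.3% in either.

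In S34F dox+ against S34F dox- no member passed, by limma with 0 of 7 called and 2 at an unadjusted p under 0.05, against 0.283% of genes called and 15.8% at an unadjusted p under 0.05. ELF3 had a log2 fold change of 0.67 (SE 0.17, limma adjusted p = 0.176) and MUC1 of 0.53 (SE 0.18, limma adjusted p = 0.246). This response rests on 1 S34F dox- library, whose spread was taken from the other groups. The response of the S34F line minus that of the WT line gave 0 of 7 members called by limma and 0 at an unadjusted p under 0.05, against 0.0264% and 3.42% of genes. Its value was -0.02 for MUC1 (interval -0.56 to 0.52), 0.22 for ELF3 (interval -0.31 to 0.74) and 0.94 for NAPSA (interval -0.02 to 1.90). Before induction, S34F dox- against WT dox- gave 0 of 7 called by limma and 0 at an unadjusted p under 0.05, against 0.0461% and 3.12% of genes, with values from -0.63 for NAPSA to 0.03 for FOXA2.

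Because the values of MUC1 and ELF3 were of like size in both lines, the mean of the 2 responses was added after the values had been seen, from the same fit. The contrast was thus picked from the values of these genes. Its adjusted p-values for them are descriptive and do not give an error rate. ELF3 rose by 0.56 on the log2 scale (SE 0.11, limma adjusted p = 0.0433), and it was the 1 of 7 members called, where 3.88% of all genes were called and 2.79% were called higher. The 4 dox+ libraries lay between 253 and 294 FPKM and the 3 transduced dox- libraries between 171 and 227. The call was kept in 4 of 16 alternative settings and lost in 12, with a positive fold change in all 16. It was lost without WT dox- replicate 1 (limma adjusted p = 0.097), WT dox+ replicate 1 (0.154) or 2 (0.137) and S34F dox+ replicate 1 (0.059) or 2 (0.0971), and without 1 library the number of genes called in this contrast was between 10 and 347 in place of 589. MUC1 was at 0.54 (SE 0.12, limma adjusted p = 0.0508), passing in 4 of 16 alternatives (limma adjusted p from 0.0278 to 0.164), 1 of them without WT dox- replicate 2 (0.0402) and none without WT dox- replicate 1 or any single dox+ library (0.0865 to 0.164), and its dox+ libraries lay between 221 and 239 FPKM and its transduced dox- libraries between 137 and 189. NKX2-1, FOXA1 and FOXA2 were at -0.0068, -0.02 and -0.02. No member was 1.5-fold apart between these 4 and 3 libraries, where 10.6% of genes were.

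This contrast depends on how libraries are scaled. The dox+ libraries had more genes at 1 FPKM or above than the others, and median-ratio factors ran from 0.911 in S34F dox- to 1.18 in S34F dox+ replicate 2. Over all genes, 424 were called higher and 165 lower as deposited, and 343 higher and 837 lower after median-ratio scaling, with the median log2 fold change going from 0.08 to -0.09. ELF3 was at 0.36 and MUC1 at 0.34 after that scaling. In S34F dox+ against S34F dox- the split was 30 higher and 13 lower, and 14 and 16 after scaling, and in S34F dox+ against WT dox+ 3 and 5, and 1 and 5. Of 14 marker genes of leukocytes, erythroid cells, endothelium and fibroblasts, 13 were listed and 4 tested, and their summed FPKM was 21.8 to 26.4 in the transduced dox- libraries, 33.7 to 43.0 in the dox+ libraries and 31.8 to 36.2 in the parental line. CD68, which is not restricted to leukocytes, had the highest mean at 22.2 FPKM. The leukocyte gene PTPRC was at 0.10 to 1.13 FPKM in the transduced dox- libraries, 1.57 to 2.71 in the dox+ libraries and at most 0.32 in the parental line, and the collagen gene COL1A1 at 2.83 to 3.28, 4.17 to 7.0 and 3.11 to 5.56 FPKM, so that neither overlapped between the transduced dox- and dox+ libraries. The share of all genes without overlap between these libraries, at any fold, was not counted. With a difference of 1.5-fold or more as well, it was 10.6% of genes tested. The other 10 markers were at or below 2.73 FPKM in every library, the endothelial VWF and CDH5 at or below 1.21 FPKM, and HBB was listed at 0 throughout. Whether CD68 and these markers overlapped is not described here. The part of these differences in the result was not tested.

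The wild-type line before induction was compared with the parental line. No member passed, by limma with 0 of 7 called and 3 at an unadjusted p under 0.05, against 0.0988% of genes called and 12.3% at an unadjusted p under 0.05. MUC1 came closest, with a log2 fold change of -1.19 (SE 0.15, limma adjusted p = 0.0511), and it passed in 4 of 14 alternatives (limma adjusted p from 0.00941 to 0.377), 1 of which left out WT dox- replicate 2 and gave -1.43 (limma adjusted p = 0.0138). NAPSA was at -1.14 (SE 0.26, limma adjusted p = 0.169) and ELF3 at -0.55 (SE 0.14, limma adjusted p = 0.215). NAPSA and MUC1 were the 2 members at least 1.5-fold apart without overlap, both higher in the parental line, where 7.58% of genes were apart in this direction and 13.2% in either. The median over the members was -0.46 and over all genes 0.

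All 7 transduced libraries were then set against the parental line, a contrast added after the values had been seen. It gave 0 of 7 members called by limma and 5 at an unadjusted p under 0.05, against 0.112% of genes called and 12.4% at an unadjusted p under 0.05. NAPSA was at -1.46 (SE 0.21, limma adjusted p = 0.0734) and MUC1 at -0.95 (SE 0.12, limma adjusted p = 0.0504), and both had the parental libraries above all 7 others at 1.5-fold or more. Of all genes 1.38% were apart in this direction and 3.6% in either. MUC1 passed in 6 of 18 alternatives, with limma adjusted p from 0.00834 to 0.364, including those without WT dox- replicate 1 (0.0309) or 2 (0.0148), and not without parental replicate 1 (0.364) or 2 (0.329), WT dox+ replicate 1 (0.236) or 2 (0.266) or S34F dox+ replicate 1 (0.110) or 2 (0.145). NAPSA passed in 1 of 17. FOXA2 was at -0.45 (SE 0.18) and NKX2-1 at -0.28 (SE 0.12). FOXA1 was at -0.02 (SE 0.12), with an interval of -0.30 to 0.26. The contrast shares its parental libraries with the one before it. The parental line differs from the others in transduction, in selection of subclones and, by 1 of the 2 sources, in doxycycline, and these cannot be told apart.

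Genes of related programs were described by lists. Among 12 tested alveolar type II and surfactant genes, none passed in the 6 planned comparisons. The most abundant were FASN and SCD, enzymes of fatty acid synthesis, with means of 173 and 163 FPKM, and LPCAT1, a surfactant lipid enzyme, with 115 FPKM. CTSH, a cysteine protease that processes surfactant protein, rose in the mean response by 0.62 (SE 0.11, limma adjusted p = 0.0375), from 55.9 to 63.3 FPKM in the transduced dox- libraries to 84.2 to 109 FPKM in the dox+ libraries. The call was lost in 10 of 16 alternatives, among them each of the 6 fits without 1 library, with adjusted p from 0.0503 to 0.141. SLC34A2, a phosphate transporter and the 5′ partner of the fusion in these cells, was at 115 and 166 FPKM in the parental line and between 40.1 and 70.5 FPKM in the 7 transduced libraries (log2 fold change -1.32, SE 0.17, limma adjusted p = 0.0553). ROS1 was at 26.1 and 37.8 FPKM in the parental line and between 8.63 and 17.1 FPKM in the transduced libraries (log2 fold change -1.07, SE 0.22, limma adjusted p = 0.131). Neither SLC34A2 nor ROS1 passed. CTSH, SLC34A2 and ROS1 were named after their values were seen.

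Among club and airway secretory genes, 5 were tested and none passed in the planned comparisons. LCN2, an iron-binding protein of airway secretions, was the most abundant at 859 FPKM, and it fell in transduced against parental libraries by 0.74 on the log2 scale (SE 0.08, limma adjusted p = 0.0261), a call lost in 9 of 18 alternatives, among them those without either parental replicate (0.285 and 0.166) or any WT replicate (0.0807 to 0.194). The other 2 most abundant were SLPI, a protease inhibitor, at 24.6 FPKM and WFDC2 at 23.6 FPKM. SCGB3A2, a secretoglobin under NKX2-1, was at 5.41 and 4.46 FPKM in the parental line and listed at 0 in all 7 transduced libraries (named after its values were seen), whereas SCGB1A1, the defining product of club cells, was listed at 0 in every library. In transduced against parental libraries SCGB3A2 was at -2.56 (SE 0.34, limma adjusted p = 0.0553) and did not pass. The alveolar type I list was led by CAV1, EMP2 and GPRC5A, with means of 473, 134 and 76.1 FPKM, and none of its 8 tested genes passed in any comparison.

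Of the CEACAM and mucin surface glycoproteins, 10 were tested and 1 passed in a planned comparison. MUC16, the mucin that carries CA125, rose in S34F dox+ against S34F dox- by 2.47 (SE 0.24, limma adjusted p = 0.0201), a call lost in 3 of 12 alternatives, 1 of them without S34F dox+ replicate 2 (2.27, limma adjusted p = 0.114). It was at 24.8 and 31.1 FPKM for parental cells, 15.8 and 18.8 in WT dox-, 72.3 and 57.0 in WT dox+, 15.2 in S34F dox- and 77.0 and 102 in S34F dox+, and its value in the WT line was 1.84 (limma adjusted p = 0.0506). The difference between the responses was 0.63 (SE 0.31, limma adjusted p = 1). In the mean response 4 of the 10 passed, all higher, namely MUC16 at 2.15, MUC4 at 0.96, MUC20 at 0.80 and MSLN, which encodes mesothelin, at 0.60. MUC16 passed in all 16 alternatives of that contrast, MUC20 in 12, MUC4 in 9 and MSLN in 7. Without WT dox- replicate 1, WT dox+ replicate 1 or 2 or S34F dox+ replicate 2, MUC20 (0.0525 to 0.0934), MUC4 (0.0643 to 0.126) and MSLN (0.0655 to 0.125, all limma adjusted p) did not pass, nor did MUC4 without WT dox- replicate 2 (0.0506) or MSLN without S34F dox+ replicate 1 (0.0524). The median of the list in the mean response was 0.61, against 0.08 over all genes. Among the most abundant of the list were EPCAM at 503 and MUC20 at 208 FPKM, and EPCAM, an adhesion protein of epithelia, was at -0.16 (SE 0.09). MUC4 and MSLN were named after their values were seen.

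**Figure D3:**
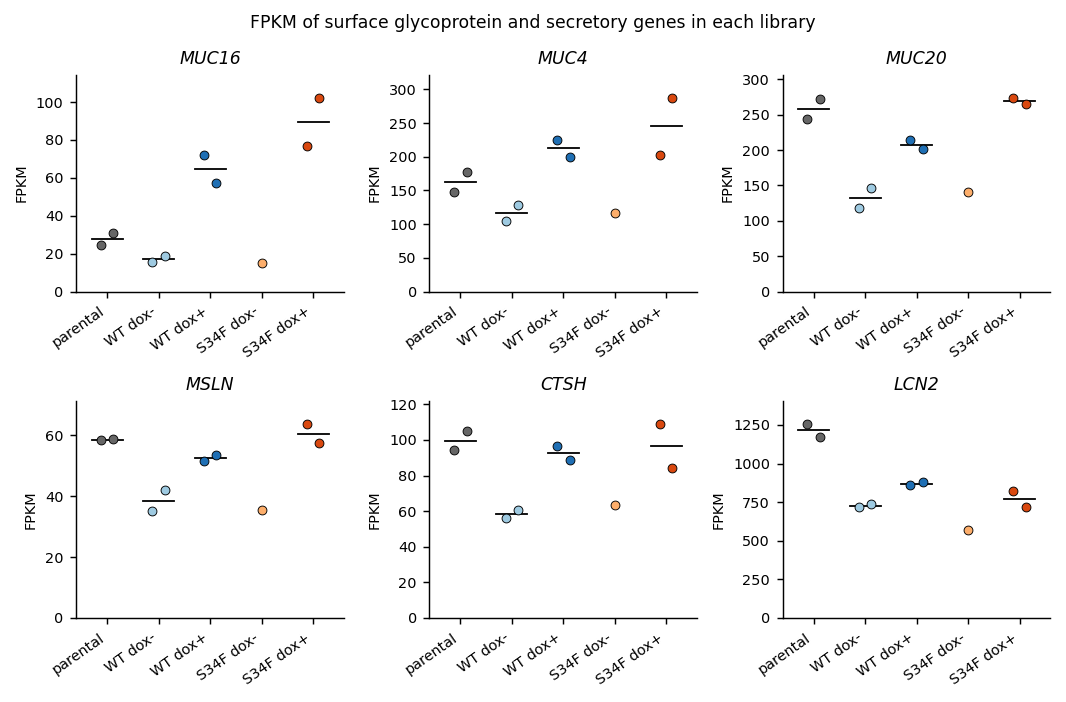
FPKM (linear axes starting at 0) of 6 listed genes in the 9 libraries, with 1 point per library and a line at the mean of groups of 2. MUC16, MUC4, MUC20, MSLN and CTSH are higher in the 4 dox+ libraries than in the 3 transduced dox- libraries, and LCN2 is highest in the 2 parental libraries.

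The remaining lists had no call in any of the 8 comparisons. The partner transcription factors were led by KLF5, NFIB and WWTR1, with means of 83.8, 40.3 and 37.6 FPKM, and the epithelial ETS factors and their partners by EHF, ESRP1 and ELF1, with 69.0, 47.9 and 42.6 FPKM. In S34F dox+ against WT dox+ the medians of these lists were -0.14 over 19 tested genes and 0.06 over 15. Of 21 gastrointestinal and mucinous genes, 4 were tested, among them AGR2, a secretory chaperone of mucins, at 39.2 FPKM, CPS1 at 15.5 and HNF4G at 7.14, while HNF4A stayed at or below 0.28 FPKM. The neuroendocrine list, with 2 tested genes, was led by ENO2 at 8.24, NCAM1 at 1.90 and SYP at 0.889 FPKM.

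Across the 9 libraries the members did not form a single pattern. The Pearson correlation of log2(FPKM + 1) was 0.85 between ELF3 and MUC1, 0.82 between NAPSA and FOXA2 and 0.82 between NAPSA and NKX2-1, and it was 0.02 between NAPSA and FOXA1. These are descriptions over 9 libraries of 5 groups, which share group differences and scaling. Among the 9268 protein-coding genes that averaged 5 FPKM or more, the 3 most like MUC1 were CTSD (0.98), TCEA3 (0.98) and ETV6 (0.97), and those most like ELF3 were VILL (0.96), MYH14 (0.96) and SYTL2 (0.96). For NKX2-1 they were BCL2L15 (0.92), RAB25 (0.92) and BAIAP2 (0.91), for FOXA1 PTPN23 (0.95), MED8 (0.93) and TARBP2 (0.90), and for FOXA2 RBBP8 (0.96), C5orf38 (0.95) and TMEM173 (0.95).

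Splicing was compared between S34F and WT from the deposited MISO values, which give for each event the PSI (the fraction of transcripts with the first listed form), a Bayes factor for a difference, and reads, without replicates. The tables do not name their 2 sides. The first was read as S34F from the order of the names, and over 8006 genes the log ratio of reads, first over second, correlated with the log ratio of FPKM in S34F dox+ over WT dox+ at r = 0.62 and in S34F dox- over WT dox- at r = 0.21, across genes that are not independent replicates. Changed events were those with PSI values 0.10 or more apart, a Bayes factor of 5 or more and 10 or more reads over both sides. The members had 75 events, 58 of them in MUC1, 7 in ELF3, 3 each in NAPSA and SFTPB, 2 in NKX2-1 and 1 each in FOXA1 and GATA6, and FOXA2 and CEACAM6 had none. None of the 75 was changed, where 1.18% of 87763 events of all genes were. By type, 53 were skipped exons, 12 alternative 3′ splice sites, 5 alternative 5′ splice sites, 3 retained introns and 2 NAGNAG acceptors. PSI values were 0.10 or more apart in 13 of the 75 (17.3%), 9 of them in MUC1, and in 32.9% of the events of all genes. The 58 MUC1 events share junctions and are not separate readouts. In 31 of them the WT PSI was near an end of its range, which leaves less room for a difference. The events of all genes were not matched for reads or PSI, so these shares do not show that the members were spared.

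**Figure D4:**
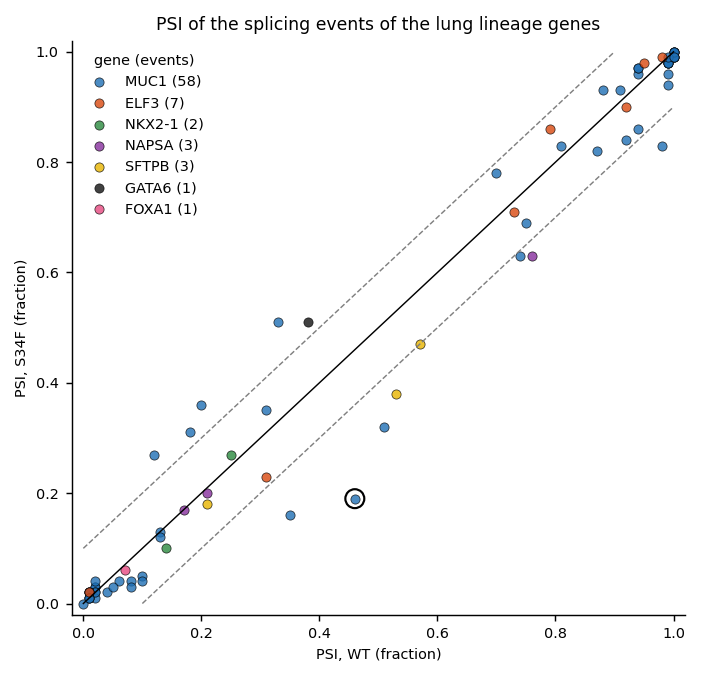
PSI (fraction) in S34F against PSI in WT for the 75 events of the members, with 1 point per event coloured by gene. The solid line marks equal PSI and the dashed lines a difference of 0.10, and the circled MUC1 event, 0.19 against 0.46, has the largest Bayes factor, 4.82.

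The event nearest the threshold was an alternative 3′ splice site of MUC1 on the minus strand, in the GRCh37 coordinates of the files, with acceptors at chromosome 1 positions 155162101 and 155162074 joined to the exon end at 155162577. The sites are 27 bases apart, and U2AF1 acts at such sites. PSI of the first site was 0.19 in S34F, over 579 reads, and 0.46 in WT, over 945 reads, with a Bayes factor of 4.82. A second listed event holds the same acceptors and another at 155162038, and there the first site had a PSI of 0.51 in S34F and 0.33 in WT (Bayes factor 1.13, 336 and 449 reads), which is the opposite direction. In an event that joins the same acceptors, and another at 155162311, to 155162478, the site at 155162101 had 0.21 in S34F and 0.27 in WT (Bayes factor 0.35, 216 and 590 reads), in the direction of the leading event. The 3 events therefore did not give a single direction for this acceptor pair, and with no replicates no difference has an error. The leading event also concerns a rarely used exon end. In the alternative 5′ splice site events of either acceptor, 155162478 in place of 155162577 had a PSI of 0.98 in S34F and 0.99 in WT.

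A retained intron event of ELF3, between 201981306 and 201981472 on chromosome 1, had the largest Bayes factor of that gene, 1.34. Its PSI was 0.86 in S34F and 0.79 in WT over 5077 and 7484 reads. The first listed form joins these positions, so by the definition above this PSI is the spliced fraction and not the retained one. For GATA6 the only event was a NAGNAG acceptor, a pair of AGs 3 bases apart, at 19751069 and 19751072 on chromosome 18, with 0.51 in S34F and 0.38 in WT (Bayes factor 1.43, 61 and 119 reads). The leading SFTPB event, an acceptor pair 12 bases apart at 85890614 and 85890602 on chromosome 2, had 0.47 and 0.57 (Bayes factor 1.36) over 15 and 37 reads. A skipped exon of NAPSA had 0.63 in S34F and 0.76 in WT (Bayes factor 0.88, 56 and 43 reads), and skipped exons of NKX2-1 and FOXA1 differed by at most 0.04 with Bayes factors of at most 0.23. Events of SFTPB, NAPSA and GATA6 had 34 to 180 reads over both sides, and those of NKX2-1, FOXA1 and ELF3 had at least 816.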

How the data were processed

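RNA-Seq libraries were prepared from total RNA of HCC78 cells. Per the labels and the study's methods, the authors trimmed paired-end reads, aligned them with STAR 2.3.0 to GRCh37 and computed gene values with RSEM 1.2.29. The authors deposited FPKM and TPM values per gene and library, without counts, so limma took the place of the DESeq2 test that the study names. The authors also deposited MISO comparisons of 5 event types, with PSI, Bayes factors and reads per event, and how replicates were combined is not given in the sources used here. These Bayes factors are the authors' own comparison. They were used as thresholds and to pick the events described. In events with several listed forms, the form with the largest Bayes factor was the one counted.

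Log2(FPKM + 1) was fitted for genes whose mean over the 9 libraries reached 1 FPKM with limma 3.58.1 in R 4.3.3, with trend, for the 5 groups in a single fit without covariates, two-sided, with 95% intervals. The fit was run on simulated data in which the changes were larger than any fitted for a member. That run does not show how well changes of the sizes seen here are found. Descriptive counts used a 1.5-fold difference of group means without overlap, and events used the thresholds of the study's methods. The members and lists were chosen with earlier results of these data known. Genes named are the members, list genes called in a planned comparison, up to 3 of each list with the highest mean, the 3 genes nearest each member with a mean of at least 5 FPKM, and those said to be named after their values were seen, and 2 genes that this rule names are not reported here. Of repeated gene names the entry of highest mean was kept. Alternatives covered the pseudocount, the minimum, scaling, TPM, a replicate block, the libraries and genes in the fit, each replicate left out and the event thresholds. Replicate numbers were not treated as pairs in the main fit. Differences between replicates correlated between groups at -0.08 to 0.04, which cannot show whether libraries of the same number were prepared together. The mean response and the contrast of all transduced libraries were added after seeing the data, so their adjusted p-values and calls are descriptive. The 2 iCLIP samples were not analysed here, and splice site sequences were not shown because no genome was used.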

Additional observations from a re-analysis of the deposited data

Results flagged for a closer look

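NAPSA was the member whose response to doxycycline went opposite ways in the 2 lines in every library. Both WT dox+ libraries, 2.52 and 1.73 FPKM, were below both WT dox- libraries, 2.79 and 4.02 FPKM, while both S34F dox+ libraries, 3.14 and 2.57 FPKM, were above the 1 S34F dox- library, 1.82 FPKM. The difference between the responses was 0.94 on the log2 scale (SE 0.41, interval -0.02 to 1.90), with an unadjusted p of 0.0535 and an adjusted p of 1 by limma, so it did not pass the test. It ranged from 0.44 to 1.27 over the alternatives, while the response within the S34F line turned from 0.45 to -0.085 with quantile normalization.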

How the results depend on the processing

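Of the fold changes of single members over all comparisons and alternatives, 702 kept their direction and their side of the threshold, 15 newly passed, 12 no longer passed and 67 changed direction. No member was called in S34F dox+ against WT dox+, in either response, in their difference or in S34F dox- against WT dox- under any alternative run, the replicate block included. In WT dox- against parental, 1 member (MUC1) was called with a pseudocount of 0.1, a minimum mean of 5 FPKM or protein-coding genes only, and 0 to 1 with a replicate left out. In the mean response 2 were called under those 3 settings, 0 with a pseudocount of 5, no minimum, median-ratio scaling, quantile normalization, TPM, the replicate block or only the groups compared, and 0 to 2 with a replicate left out (2 without WT dox- replicate 2, and 0 without each of WT dox- replicate 1, WT dox+ replicates 1 and 2 and S34F dox+ replicates 1 and 2). In transduced against parental 1 was called with a pseudocount of 0.1 or 5 or a minimum of 5, 2 with protein-coding genes only, and 0 to 1 with a replicate left out. Over all genes, calls as reported and their range over the alternatives were 8 (0 to 29) in S34F dox+ against WT dox+, 2 (0 to 32) in the WT response, 43 (0 to 148) in the S34F response, 4 (0 to 33) in their difference, 7 (0 to 112) in S34F dox- against WT dox-, 15 (3 to 58) in WT dox- against parental, 589 (10 to 1180) in the mean response and 17 (2 to 66) in transduced against parental. Of the members apart, WT dox+ against WT dox- had 0 at 2-fold or a minimum of 5 FPKM and 1 to 3 with a replicate left out, WT dox- against parental 1 at a minimum of 5 and 2 to 4 with a replicate left out (4 without WT dox- replicate 2), S34F dox+ against WT dox+ 0 to 1 (1 without WT dox+ replicate 1), the dox+ against transduced dox- libraries 1 after median-ratio scaling and 0 to 2 with a replicate left out (2 without WT dox- replicate 2), and transduced against parental 1 at 2-fold or a minimum of 5. At a Bayes factor of at least 1, 7 of the 75 events passed (9.33%, against 15.2% of all events).

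The fold changes that turned, all log2, were as follows. After median-ratio scaling they were -0.021 for NKX2-1, -0.020 for FOXA1 and -0.065 for ELF3 in S34F dox+ against WT dox+, -0.10 for FOXA2 in the WT response, -0.19 for NKX2-1 and -0.26 for FOXA1 in the S34F response, -0.10 for FOXA1 in the difference between the responses, and 0.075 for FOXA1 and 0.042 for MUC1 in S34F dox- against WT dox-. With TPM they were -0.070 for NKX2-1, -0.069 for FOXA1 and -0.12 for ELF3 in S34F dox+ against WT dox+, -0.043 for NKX2-1 and -0.11 for FOXA1 in the S34F response, -0.089, 0.021 and 0.075 for FOXA1 in the difference between the responses, S34F dox- against WT dox- and transduced against parental. With quantile normalization they were -0.0042 for ELF3 in S34F dox+ against WT dox+, -0.13 for FOXA2 in the WT response, -0.00018 for FOXA1 and -0.085 for NAPSA in the S34F response, 0.00015 for MUC1 in the difference between the responses and 0.030 for NKX2-1 in the mean response. With a pseudocount of 5 they were -0.00078 for FOXA2 in the WT response and -3.7e-05 for FOXA1 in WT dox- against parental. With the replicate block they were 0.055 for FOXA2 in the S34F response and in the difference between the responses, 0.020 for MUC1 in that difference, -0.057 for FOXA2 in S34F dox- against WT dox-, and 0.0022 for NKX2-1 and 0.028 for FOXA2 in the mean response. The cause was not tested.

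With a replicate left out, S34F dox+ against WT dox+ ran from -0.031 to 0.12 for NKX2-1, -0.11 to 0.20 for FOXA1, -0.054 to 0.049 for FOXA2, -0.21 to 0.092 for GATA6 and -0.11 to 0.11 for ELF3. The WT response ran from -0.26 to 0.077 for NKX2-1 and -0.12 to 0.13 for FOXA2, the S34F response from -0.15 to 0.17 for FOXA1 and -0.27 to 0.036 for GATA6, and their difference from -0.10 to 0.22 for FOXA1, -0.16 to 0.091 for FOXA2 and -0.25 to 0.21 for MUC1. S34F dox- against WT dox- ran from -0.30 to 0.043 for NKX2-1, -0.037 to 0.012 for FOXA1, -0.093 to 0.16 for FOXA2 and -0.28 to 0.18 for MUC1, and WT dox- against parental from -0.11 to 0.11 for FOXA1. The mean response ran from -0.092 to 0.078 for NKX2-1, -0.10 to 0.057 for FOXA1, -0.079 to 0.046 for FOXA2 and -0.12 to 0.079 for NAPSA, and transduced against parental from -0.13 to 0.091 for FOXA1. In these fits a lone library was assumed to vary like the other groups. Only 1 S34F dox- library was given, and without counts the reads behind the low genes SFTPB and CEACAM6 are unknown.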
